A study of Arabidopsis thaliana with 16 samples.

Results

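Adult Arabidopsis thaliana Col-0 leaves were compared 3 weeks after a single spray of the seedlings with jasmonic acid (JA) or water, in plants that received only water as adults. This comparison takes 8 of the study's 16 libraries: 4 labelled JA_W (1 mM JA at 2 weeks, water at 5 weeks) and 4 labelled W_W (water at both ages). They were chosen by their labels alone, with no measured value. The other 8 libraries, JA_JA and W_JA, come from plants with the same seedling sprays that were challenged with 0.1 mM JA at 5 weeks. Every spray contained 0.02% silwet L-77, and the water sprays carried the ethanol of the matching JA solution, so all groups met solvent and surfactant at both ages. All plants were wild-type Col-0 grown on soil in short days, and rosette leaves were harvested at 5 weeks, 4 h after the last spray. Each library is a pool of 8 leaves taken equally from 2 plants, and the labels number the 4 libraries of a group as biological replicates.

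Jasmonates are lipid-derived hormones that defend leaves against chewing insects and necrotrophic fungi. The active conjugate, jasmonoyl-isoleucine, is bound by COI1 together with JAZ repressors, whose loss frees MYC factors (VSP and glucosinolate genes) or, together with ethylene, ERF factors such as ORA59 (defensin genes). Salicylic acid (SA) is made through ICS1, is read by NPR proteins and TGA factors, drives PR genes against biotrophs, and often opposes the jasmonate branches in leaves.

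Leaf levels are CPM, read counts scaled to library size with TMM factors, and are given in the order of replicates 1 to 4. The 8 libraries held 32388078 to 34319939 counted reads, so that 1 read was about 0.0292 CPM. Differences were tested with edgeR's quasi-likelihood test over 19224 genes in 1 fit to all 16 libraries, and a gene is said to have risen or fallen in JA_W only where its Benjamini-Hochberg adjusted p was below 0.05. Leaf identity was plain in both groups: the 29 nuclear photosynthesis genes summed to 94461 to 136020 CPM in W_W and to 122490 to 154450 CPM in JA_W. Root hair and endodermis markers (RSL4, EXPA7, COBL9, CASP1) and floral and seed markers (AP3, PI, CRA1, CRC, OLEO1) had 0 to 6 reads a gene in either group, and none could be tested. Since these are bulk leaves, fewer cells of a type and less RNA per cell cannot be told apart. JA_W replicate 1 and W_W replicate 4 stood apart from the others of their group. The mean chi-squared per gene between JA_W replicate 1 and its group was 44.6 to 48.8, against 6.05 to 9.59 among the other JA_W libraries. For W_W replicate 4 it was 50.1 to 75.0, against 12.6 to 39.7 among the other W_W libraries. Differences between groups were larger than that: the root-mean-square log2 difference over genes was 0.295 to 0.480 within W_W, 0.292 to 0.515 within JA_W and 0.874 to 1.37 between them. The smallest distance between groups lay between the same pair of libraries that stood apart. Anything else that followed the seedling spray without being on the labels cannot be told apart from it.

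The seedling spray was followed by a broad difference in the adult leaf transcriptome. Of the 19224 genes, 12471 (64.9%) were called, 6497 of them higher in JA_W (33.8%) and 5974 lower (31.1%). Counts of list members below are to be read beside these shares. Which direction had more calls turned with the scaling: DESeq2 gave 6233 higher and 6366 lower, library totals 5117 and 6944 and upper-quartile scaling 7368 and 5280. More of the large changes were falls. Among called genes, 1566 rose and 2573 fell more than 2-fold (8.15% and 13.4% of genes tested), 44 rose and 592 fell more than 8-fold, and 4 rose and 143 fell more than 32-fold. The replicates of both groups did not overlap for 5895 genes with higher values in JA_W (30.7%) and 5518 with lower values (28.7%), or 59.4% of genes in either direction. Genes that fell more than 2-fold carried 11.3% to 17.2% of the CPM in W_W libraries and 3.03% to 4.29% in JA_W. Genes that rose more than 2-fold carried 4.14% to 6.13% in W_W and 9.98% to 12.6% in JA_W. These shares describe the genes chosen by that test and are no further support for it. The median log2 change over all genes was 0.05, and library totals in place of TMM shifted log2 changes by a median of -0.13. Without W_W replicate 4 and JA_W replicate 1, 6325 genes were called higher and 6046 lower.

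The 10 deepest falls included SA-responsive genes and genes with little known function. PR1, a secreted antimicrobial protein and the standard reporter of SA signalling, stood at 809.6, 364, 597 and 229.7 CPM in W_W and 0, 0.0299, 0.0297 and 0.152 CPM in JA_W. Those are 72804 W_W and 7 JA_W read counts, so that PR1 was close to silent in JA_W and abundant in every W_W library. The change (log2 change -13.15 ± 1.05, adjusted p = 1.7e-07) was the largest fall among the named genes, and it was -14.40 without JA_W replicate 4, which held 5 of the 7 reads of its group. DLO1, an SA 3-hydroxylase, stood at 307, 159, 188 and 155 CPM in W_W and 0.36, 0.329, 1.16 and 1.33 CPM in JA_W (log2 change -7.996 ± 0.70, adjusted p = 3.4e-07). The highest JA_W library lay far below the lowest W_W library for this gene. ARD3, an acireductone dioxygenase, stood at 69.1, 44, 73.1 and 13.7 CPM in W_W and 0.0277, 0, 0.0594 and 0 CPM in JA_W. Its W_W replicate 4 was the lowest of its group, yet the groups were far apart, with a ratio of read counts of 2281-fold (95% counting interval 780.3 to 11060). AT3G28510, a P-loop nucleoside triphosphatase gene, stood at 130.2, 58.4, 136 and 81.3 CPM in W_W and 0.0553, 0.0897, 0.0594 and 0.121 CPM in JA_W (log2 change -10.23 ± 0.69, adjusted p = 5.2e-08), again with no overlap. AT4G05540, of the same superfamily, had a ratio of 686-fold (95% counting interval 123 to 27130), and the uncharacterised AT1G65483 one of 290.1-fold (95% counting interval 51.7 to 11490). AT2G44240 (DUF239) had no read in JA_W and 438 in W_W, which is at least 137-fold lower. The last 3 of the 10 were cwINV6, annotated as a fructan exohydrolase (log2 change -7.85 ± 0.52, adjusted p = 2.7e-08), AT5G51465, uncharacterised (log2 change -7.86 ± 0.55, adjusted p = 4.2e-08), and AT2G45220, of the invertase and pectin methylesterase inhibitor superfamily (log2 change -7.71 ± 0.83, adjusted p = 2.0e-06). All reads of AT2G45220 in JA_W were in replicate 1 (33, 16.9, 27.3 and 29.8 CPM in W_W and 0.47, 0, 0 and 0 CPM in JA_W). Without JA_W replicate 1 the log2 changes of AT2G45220 and cwINV6 were -12.81 and -8.52, and without W_W replicate 4 as well that of AT5G51465 was -8.53. Without JA_W replicate 3 those of ARD3 and AT4G05540 were -11.86 and -10.41, and without JA_W replicate 2 that of AT1G65483 was -9.17. Each JA_W replicate left out held some or all of the few JA_W reads of that gene, while for AT5G51465 a W_W library was left out too. A fitted change against a group left with 0 reads, here and below, depends on the prior count and is no bound.

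The largest rises belonged to jasmonate outputs, flavonoid synthesis and a small set of other genes. VSP2, a vegetative storage protein that is a classical reporter of the MYC branch, stood at 4.12, 3.86, 1.88 and 4.87 CPM in W_W and 150.1, 147, 97.8 and 109 CPM in JA_W (log2 change 5.09 ± 0.27, adjusted p = 2.2e-09). Its paralog VSP1 stood at 0.78, 0.818, 0.388 and 1.13 CPM in W_W and 14.9, 9.77, 5.79 and 9.8 CPM in JA_W (log2 change 3.69 ± 0.30, adjusted p = 8.2e-08). Every JA_W library exceeded every W_W library for both, although reads of these near-copies may be shared between them. CHS, chalcone synthase, the entry enzyme of flavonoid synthesis, stood at 2.87, 8, 7.92 and 9.79 CPM in W_W and 99.2, 189, 130.5 and 178 CPM in JA_W (log2 change 4.38 ± 0.34, adjusted p = 9.7e-08). CSLA01, a cellulose synthase-like gene, stood at 0.446, 0.409, 0.471 and 0.464 CPM in W_W and 14.8, 16.1, 13.2 and 25.1 CPM in JA_W (log2 change 5.26 ± 0.29, adjusted p = 4.0e-09). The W_W libraries were nearly equal for CSLA01, and JA_W replicate 4 was the highest of its group. AT1G73325, a Kunitz-type trypsin inhibitor gene, stood at 0.251, 0.102, 0.0277 and 0.174 CPM in W_W and 15.9, 5.05, 3.71 and 4.49 CPM in JA_W (log2 change 5.70 ± 0.60, adjusted p = 1.6e-06), with JA_W replicate 1 far above the other 3. Without JA_W replicate 1 its log2 change was 4.97. SCPL9, a serine carboxypeptidase-like gene, stood at 0.641, 0.997, 0.72 and 1.33 CPM in W_W and 11.7, 14.7, 13.7 and 14.5 CPM in JA_W (log2 change 3.88 ± 0.19, adjusted p = 1.4e-09), with tight groups. The remaining rises were AT3G61920 (log2 change 4.05 ± 0.52, adjusted p = 7.3e-06), NUDT24, a nudix hydrolase (log2 change 3.99 ± 0.52, adjusted p = 7.0e-06), GA2OX1, a gibberellin-inactivating oxidase (log2 change 3.79 ± 0.48, adjusted p = 4.3e-06), and AT3G24463, of the nuclear transport factor 2 family (log2 change 3.71 ± 0.35, adjusted p = 2.4e-07). NUDT24 was at 4.86 without W_W replicate 4 and JA_W replicate 1.

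**Figure D1:**
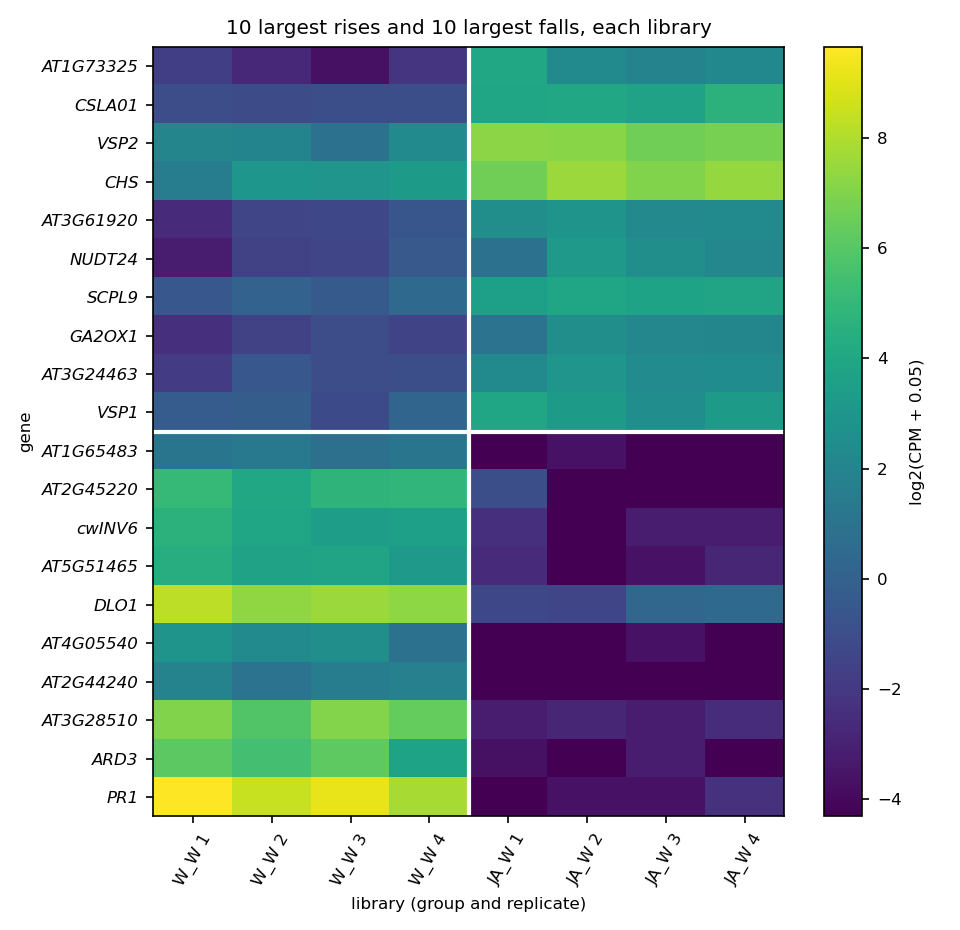
Level of the 10 largest rises (above the white line) and 10 largest falls in each of the 8 libraries, as log2(CPM + 0.05) on the colour scale, with genes in rows and libraries in columns. All 4 JA_W libraries differ from all 4 W_W libraries in the same direction for each of the 20 genes, by which the genes were also chosen.

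In absolute amount 5 of the 6 largest rises were in photosynthesis genes. RBCS1A, a small subunit of Rubisco, stood at 12658, 16169, 14793 and 17485 CPM in W_W and 19889.6, 22999.5, 23815 and 24160.3 CPM in JA_W (log2 change 0.57 ± 0.14, adjusted p = 0.0017). CA1, carbonic anhydrase, stood at 2179, 2263, 2504 and 3778 CPM in W_W and 4324, 5592, 5958 and 6069 CPM in JA_W (log2 change 1.03 ± 0.21, adjusted p = 0.00032), and FBA2, a plastid aldolase, rose as well (log2 change 0.96 ± 0.17, adjusted p = 0.00014). RCA, Rubisco activase (log2 change 0.52 ± 0.17, adjusted p = 0.012), LHCB1.2, a light-harvesting protein (log2 change 0.58 ± 0.17, adjusted p = 0.0073), and ESM1, which shifts glucosinolate breakdown towards isothiocyanates (log2 change 1.22 ± 0.24, adjusted p = 0.00034), complete the 6. For RCA the groups overlapped, since W_W replicate 4 (7340.4 CPM) was above JA_W replicate 1 (6679 CPM). On the falling side ECS1 stood at 6347, 5016, 5329.8 and 3586 CPM in W_W and 1327, 1203, 1352 and 1217 CPM in JA_W (log2 change -1.99 ± 0.24, adjusted p = 2.1e-06). The uncharacterised AT2G25510 (4962, 4113, 4031 and 2522 CPM in W_W and 387, 410.2, 473 and 487 CPM in JA_W) and AT5G42530 (3412, 3674, 3306 and 2519.8 CPM in W_W and 351, 377, 453 and 476 CPM in JA_W) fell by a similar order, with log2 changes of -3.15 and -2.96. SHD, an endoplasmic reticulum HSP90 chaperone (log2 change -2.48 ± 0.29, adjusted p = 2.2e-06), and GSTF6, a glutathione transferase of camalexin synthesis (log2 change -2.70 ± 0.54, adjusted p = 0.00053), followed. GSTF6 in JA_W replicate 1 (523 CPM) was well above the other 3 JA_W libraries (98.1, 154 and 134 CPM) and below every W_W library, and its log2 change without that replicate was -3.52. PR2, a beta-1,3-glucanase, completed the 6 falls, at 2140.4, 961, 1305 and 940.0 CPM in W_W and 22.8, 16, 27.7 and 22.1 CPM in JA_W (log2 change -5.92 ± 0.52, adjusted p = 3.0e-07).

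The upstream sequence of 4 of the genes named here is shown because letters that defence and growth factors are known to bind were counted in the promoters of all genes that moved. Each is the 250 bases before the annotated start of the gene, 5′ to 3′ on the strand of the gene, from RefSeq TAIR10.1. In the first 2 genes, which fell, capitals mark the W-box core TTGAC and the as-1 core TGACG on either strand, which overlap where TTGACG occurs. SARD1 (chr1:27749249-27749498, minus strand) is a transcription factor gene that activates ICS1, and FRK1 (chr2:8329945-8330194, minus strand) is a flagellin-induced receptor kinase.
SARD1: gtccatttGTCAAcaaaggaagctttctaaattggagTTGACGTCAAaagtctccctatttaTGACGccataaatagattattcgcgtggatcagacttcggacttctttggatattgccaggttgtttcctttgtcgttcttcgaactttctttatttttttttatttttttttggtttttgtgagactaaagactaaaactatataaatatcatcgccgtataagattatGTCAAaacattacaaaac
FRK1: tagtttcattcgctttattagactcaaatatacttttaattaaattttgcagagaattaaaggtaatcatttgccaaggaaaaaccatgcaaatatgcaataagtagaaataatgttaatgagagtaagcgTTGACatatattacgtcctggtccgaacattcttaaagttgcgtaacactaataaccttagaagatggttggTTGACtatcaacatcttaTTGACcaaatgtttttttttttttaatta
In CHS (chr5:4488226-4488475, plus strand), which rose, capitals mark the G-box CACGTG.
CHS: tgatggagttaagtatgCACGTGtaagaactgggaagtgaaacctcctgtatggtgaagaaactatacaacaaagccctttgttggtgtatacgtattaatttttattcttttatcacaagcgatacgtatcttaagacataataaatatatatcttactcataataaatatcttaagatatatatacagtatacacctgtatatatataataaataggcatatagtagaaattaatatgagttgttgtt
In RPL5A (chr3:9271466-9271715, minus strand), a cytosolic ribosomal protein gene that rose, capitals mark the site II element TGGGCC, here read from its other strand. The W-box core is marked only in the first 2 genes. RPL5A holds it as well, on the other strand (GTCAA), left in lower case.
RPL5A: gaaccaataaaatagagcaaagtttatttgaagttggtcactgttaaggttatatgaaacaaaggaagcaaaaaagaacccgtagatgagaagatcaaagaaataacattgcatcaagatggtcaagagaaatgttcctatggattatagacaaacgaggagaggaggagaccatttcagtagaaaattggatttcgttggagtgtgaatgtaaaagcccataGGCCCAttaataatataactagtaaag

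The 250 bases upstream were read for 18707 tested protein-coding genes, on both strands. The W-box core, the binding letters of WRKY factors, was in 45% of these promoters. Its share was 65.5% of the 582 genes that fell more than 8-fold, 59.8% of those that fell 4- to 8-fold, 53.6% at 2- to 4-fold and 47.5% below that, 42.9% of genes not called, 41.1% of genes that rose under 2-fold, 39.3% of those that rose 2- to 4-fold and 48.8% of those that rose more than 4-fold. The share stepped down with each smaller class of fall, and in the 164 genes with the largest rises it was again above that of genes not called. The as-1 core, bound by TGA factors, stepped down over the classes of fall as well, from 25.4% of the deepest falls to 18.6% of genes not called and 17.9% at rises of 2- to 4-fold. The site II element, known from promoters of ribosomal protein genes, was in 16.9% of all promoters, 5.67% of the deepest falls, 16.7% of genes not called, 22.3% of rises under 2-fold, 14.2% at 2- to 4-fold and 6.1% of rises over 4-fold, so that it was low at large changes in both directions. It was in 12 of the 20 ribosomal protein genes listed, of which 19 rose and 1 fell. The W-box core was in 55% of these 20 promoters and in 56.25% of the 48 promoters of the SA and WRKY lists. Its share was 47.06% in the flavonoid list and 27.59% in the nuclear photosynthesis list. The as-1 core was in 25% of the ribosomal and 25% of the SA and WRKY promoters, so these letters were not particular to lists that fell. The G-box, bound by bHLH and bZIP factors, was in 7.47% of all promoters and in 15.2% of the 164 genes that rose more than 4-fold. The GCC-box GCCGCC, bound by ERF factors, was in 1.97% of all promoters and in 2.02% of genes that fell more than 2-fold. Shares of base composition were alike, with a median GC content of 31.2% over all promoters, 31% in the deepest falls and 31.2% in genes that rose more than 2-fold. A match is a run of letters and not a binding site, and these shares were not tested.

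**Figure D2:**
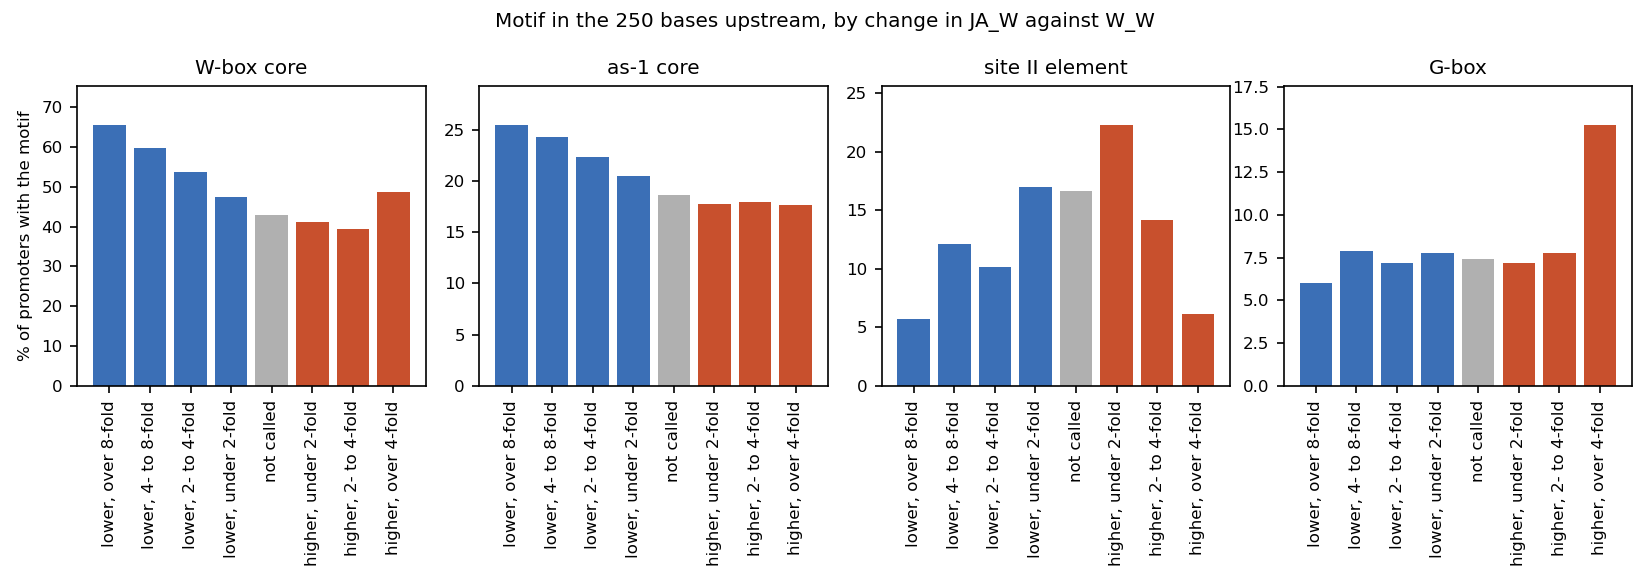
Percentage of promoters that hold each of 4 motifs in the 250 bases upstream (y axis, starting at 0), by the size and direction of the change in JA_W against W_W (x axis; blue lower, grey not called, orange higher). The W-box bars step down from 65.5% in the deepest falls to 42.9% in genes not called, and stand at 48.8% in the largest rises.

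Most salicylic acid genes were lower in JA_W, in synthesis, removal, perception and output alike. Of 10 tested genes for SA and pipecolate synthesis 9 fell and 1 rose (median log2 change -3.19), where 31.1% of all genes fell. SARD1, an activator of SA synthesis genes, stood at 123, 74, 87.5 and 68.8 CPM in W_W and 2.79, 2.06, 2.61 and 3.03 CPM in JA_W (log2 change -5.07 ± 0.36, adjusted p = 6.7e-08). CBP60g, its partner, fell too (log2 change -3.59 ± 0.27, adjusted p = 7.0e-08). ICS1, isochorismate synthase, stood at 153, 80.2, 91.5 and 68.6 CPM in W_W and 16.5, 18.4, 19.1 and 20.3 CPM in JA_W (log2 change -2.40 ± 0.21, adjusted p = 1.6e-07), and W_W replicate 1 was the highest of all 8. ALD1 (log2 change -6.97 ± 0.71, adjusted p = 1.2e-06) and FMO1 (log2 change -6.26 ± 0.72, adjusted p = 3.4e-06), which make pipecolic acid and its N-hydroxyl form for systemic resistance, were among the deepest. Without JA_W replicate 1 these were -7.74 and -7.27. EPS1, the 1 member that rose (log2 change 0.52 ± 0.15), lost that call with library totals. The enzymes that remove SA were also lower: 4 of 5 fell, namely DLO1, the SA 5-hydroxylase DMR6 (782, 509, 478 and 372 CPM in W_W and 22.2, 10.5, 20.3 and 19.9 CPM in JA_W; log2 change -4.88 ± 0.43, adjusted p = 2.8e-07), the glucosyltransferase UGT76B1 (log2 change -5.18 ± 0.77, adjusted p = 3.9e-05, and -5.86 without JA_W replicate 1) and UGT74F2, which forms SA glucose ester (log2 change -1.84 ± 0.29, adjusted p = 5.3e-05). UGT74F1, which makes SA glucoside, rose (log2 change 1.36 ± 0.30).

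Among 11 tested genes of SA perception 10 fell and none rose in edgeR, in DESeq2 or at an unadjusted p below 0.05. NPR3, an SA receptor that represses SA outputs, stood at 56.3, 49, 56.1 and 37.7 CPM in W_W and 10.8, 9.47, 9.71 and 10.8 CPM in JA_W (log2 change -2.29 ± 0.12, adjusted p = 2.2e-09). NIMIN1 (11.3, 10.9, 11.8 and 9.33 CPM in W_W and 0.111, 0.0897, 0.267 and 0.182 CPM in JA_W; log2 change -6.03 ± 0.38, adjusted p = 1.1e-08) and NIMIN2 (log2 change -5.57 ± 0.44, adjusted p = 1.2e-07), NPR1-interacting proteins induced by SA, were almost off in JA_W. TGA1, a TGA factor, fell less (log2 change -1.49 ± 0.14, adjusted p = 2.7e-07), and NPR1 itself fell by 1.00 on the log2 scale. TGA2 was the member not called (log2 change -0.13 ± 0.09, adjusted p = 0.18). All 5 outputs fell. PR5, a thaumatin-like protein, stood at 1415, 735, 888 and 685 CPM in W_W and 105, 138, 115 and 111 CPM in JA_W (log2 change -2.99 ± 0.37, adjusted p = 5.3e-06). The glutaredoxin genes GRXS13 (log2 change -7.13 ± 0.34, adjusted p = 1.4e-09) and GRXC9 (log2 change -4.61 ± 0.63, adjusted p = 1.7e-05; -5.42 without JA_W replicate 1) completed the list with PR1 and PR2. Summed over these 5 genes the level was 4403, 2093, 2824 and 1885 CPM in W_W and 128, 154, 143 and 134 CPM in JA_W.

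**Figure D3:**
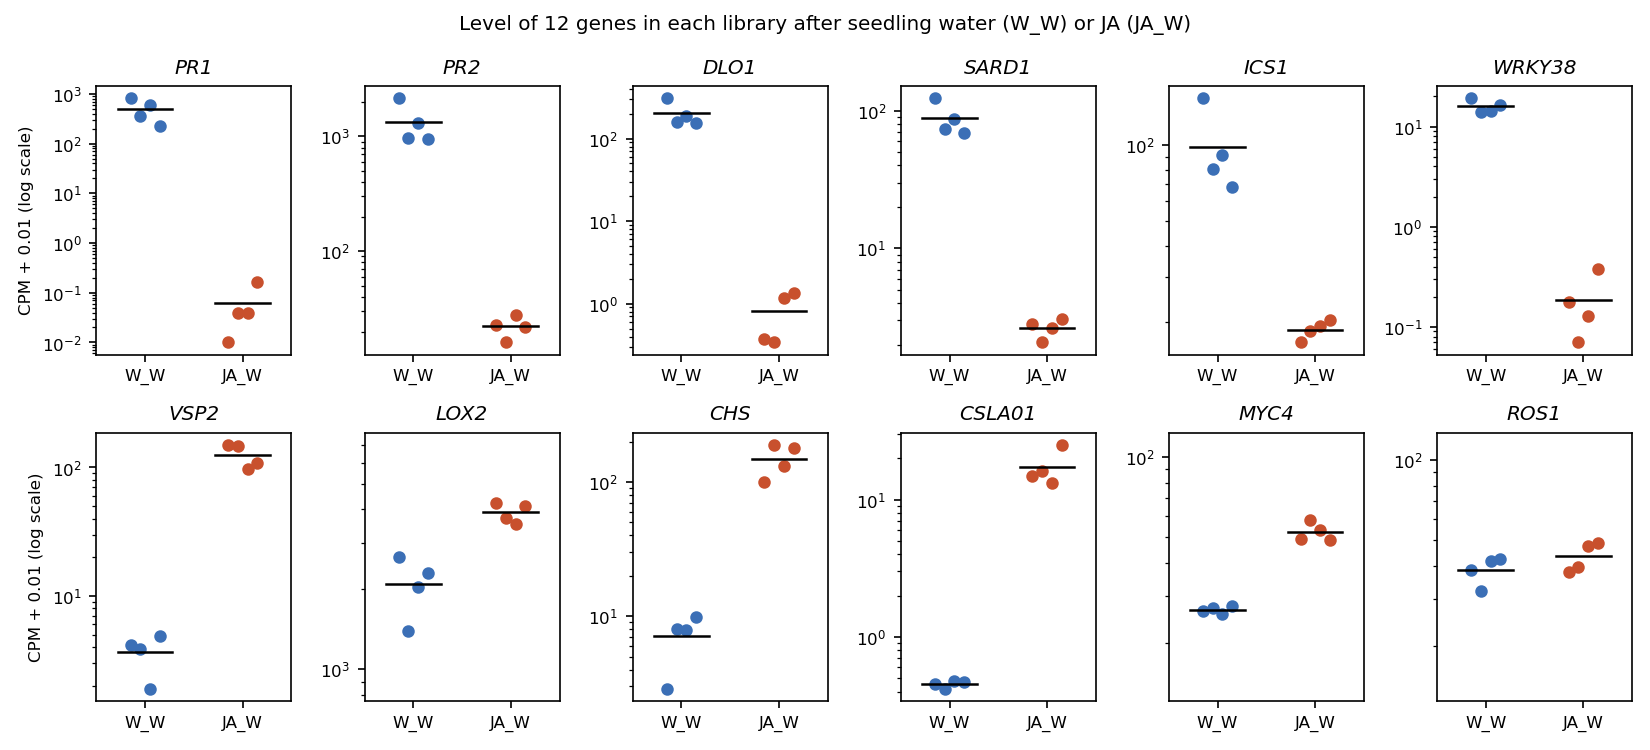
Level of 12 genes in each library, as CPM + 0.01 on a log scale, for W_W (blue) and JA_W (orange); each point is a library and the black bar is the mean of 4. PR1, PR2, DLO1, SARD1, ICS1 and WRKY38 lie lower in every JA_W library, VSP2, LOX2, CHS, CSLA01 and MYC4 lie higher, and ROS1 overlaps.

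Immune transcription factors, receptors and signalling genes fell together. All 17 tested immune WRKY genes fell, with a median log2 change of -3.84 and a range from -6.87 to -2.19. WRKY38, an SA-induced factor, stood at 19.1, 14.1, 14.3 and 16.3 CPM in W_W and 0.166, 0.0598, 0.119 and 0.364 CPM in JA_W (log2 change -6.47 ± 0.50, adjusted p = 7.8e-08). WRKY62 (log2 change -6.87 ± 0.68, adjusted p = 4.6e-07), WRKY51 (log2 change -5.72 ± 0.42, adjusted p = 5.5e-08) and WRKY63 (log2 change -5.16 ± 0.62, adjusted p = 5.0e-06) fell as deeply, and no JA_W library overlapped W_W for any of the 17. Without JA_W replicate 4 WRKY38 was at -7.06, without JA_W replicate 1 WRKY63 was at -6.27, and without both JA_W replicate 1 and W_W replicate 4 WRKY51 was at -6.35.

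The 17 tested genes around EDS1, the lipase-like hub of signalling by intracellular receptors, all fell as well (median -1.38). EDS1 stood at 90.4, 52.5, 59.6 and 35.7 CPM in W_W and 9.96, 10.9, 13.1 and 14.4 CPM in JA_W, and its paralog EDS1B at 35, 21, 22.9 and 13.4 CPM in W_W and 0.443, 0.448, 0.801 and 1.49 CPM in JA_W. EDS1B (log2 change -4.86 ± 0.61, adjusted p = 8.6e-06), PAD4, the partner of EDS1 (log2 change -2.49 ± 0.19, adjusted p = 4.5e-08), EDS1 (log2 change -2.30 ± 0.26, adjusted p = 2.3e-06) and the helper receptor NRG1.2 (log2 change -2.14 ± 0.19, adjusted p = 1.6e-07) had the largest changes. Reads of EDS1 and EDS1B, adjacent near-copies, may be shared. Of 70 tested genes annotated as TIR-NBS-LRR receptors 60 fell and 3 rose, with a median of -0.81; 31 fell more than 2-fold. AT5G18350 had a ratio of 140.3-fold (95% counting interval 24.8 to 5580), and AT4G11170 (log2 change -4.87 ± 0.35, adjusted p = 3.4e-08), AT5G45000 (log2 change -4.57 ± 0.39, adjusted p = 1.6e-07) and AT3G25510 (log2 change -3.87 ± 0.37, adjusted p = 3.3e-07) followed. Without JA_W replicate 1 AT5G18350 was at -8.12, and without W_W replicate 4 as well AT3G25510 was at -4.46.

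At the cell surface 19 of 22 pattern recognition and early signalling genes fell and 1 rose (median -1.38). RLP23, the receptor of a microbial necrosis peptide, stood at 411, 199, 199 and 178 CPM in W_W and 15.6, 6.72, 12.8 and 12.8 CPM in JA_W (log2 change -4.36 ± 0.47, adjusted p = 1.9e-06), and SOBIR1, its co-receptor, fell with it (log2 change -3.52 ± 0.30, adjusted p = 1.9e-07). MPK11, an immune MAP kinase, fell (log2 change -3.97 ± 0.43, adjusted p = 1.9e-06). FRK1 stood at 109, 73.8, 87.5 and 113 CPM in W_W and 14.6, 2.42, 3.5 and 3.82 CPM in JA_W (log2 change -3.97 ± 0.53, adjusted p = 1.5e-05), with JA_W replicate 1 above the other 3 JA_W libraries; without that replicate its log2 change was -4.88. PEPR1, the receptor of plant danger peptides, was the 1 that rose (log2 change 0.24 ± 0.10), a call lost under 14 of 18 alternatives, with log2 changes of 0.20 in DESeq2, 0.20 without JA_W replicate 4 and 0.19 without W_W replicate 4. Cysteine-rich receptor kinases, many of them in a tandem array, fell in 17 of 19 cases and rose in 1 (median -2.24). CRK7 stood at 169.7, 106, 116 and 103 CPM in W_W and 3.49, 1.08, 1.63 and 1.97 CPM in JA_W (log2 change -5.91 ± 0.45, adjusted p = 1.1e-07), and CRK23 (log2 change -4.83 ± 0.35, adjusted p = 5.6e-08), CRK6 (log2 change -4.40 ± 0.40, adjusted p = 4.5e-07) and CRK4 (log2 change -4.31 ± 0.41, adjusted p = 6.9e-07) came next.

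The 13 endoplasmic reticulum folding genes, which serve the secretion of PR proteins and the maturation of surface receptors, all fell (median -2.21). BIP3, an inducible BiP chaperone, stood at 126, 65.6, 88.2 and 32 CPM in W_W and 0.609, 0.538, 1.19 and 1.94 CPM in JA_W (log2 change -6.20 ± 0.57, adjusted p = 5.4e-07). CRT3, the calreticulin required for the EFR receptor (log2 change -3.02 ± 0.24, adjusted p = 8.3e-08), the disulfide isomerase PDIL1-2 (log2 change -2.72 ± 0.35, adjusted p = 8.0e-06) and BIP2 (log2 change -2.62 ± 0.27, adjusted p = 9.0e-07) fell by less. In each of the 3, W_W replicate 4 was the lowest of its group, and it still lay above every JA_W library. Summed over the list the level was 9008, 5485, 7000.4 and 3542 CPM in W_W and 1122, 1304, 1351 and 1436 CPM in JA_W.

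**Figure D4:**
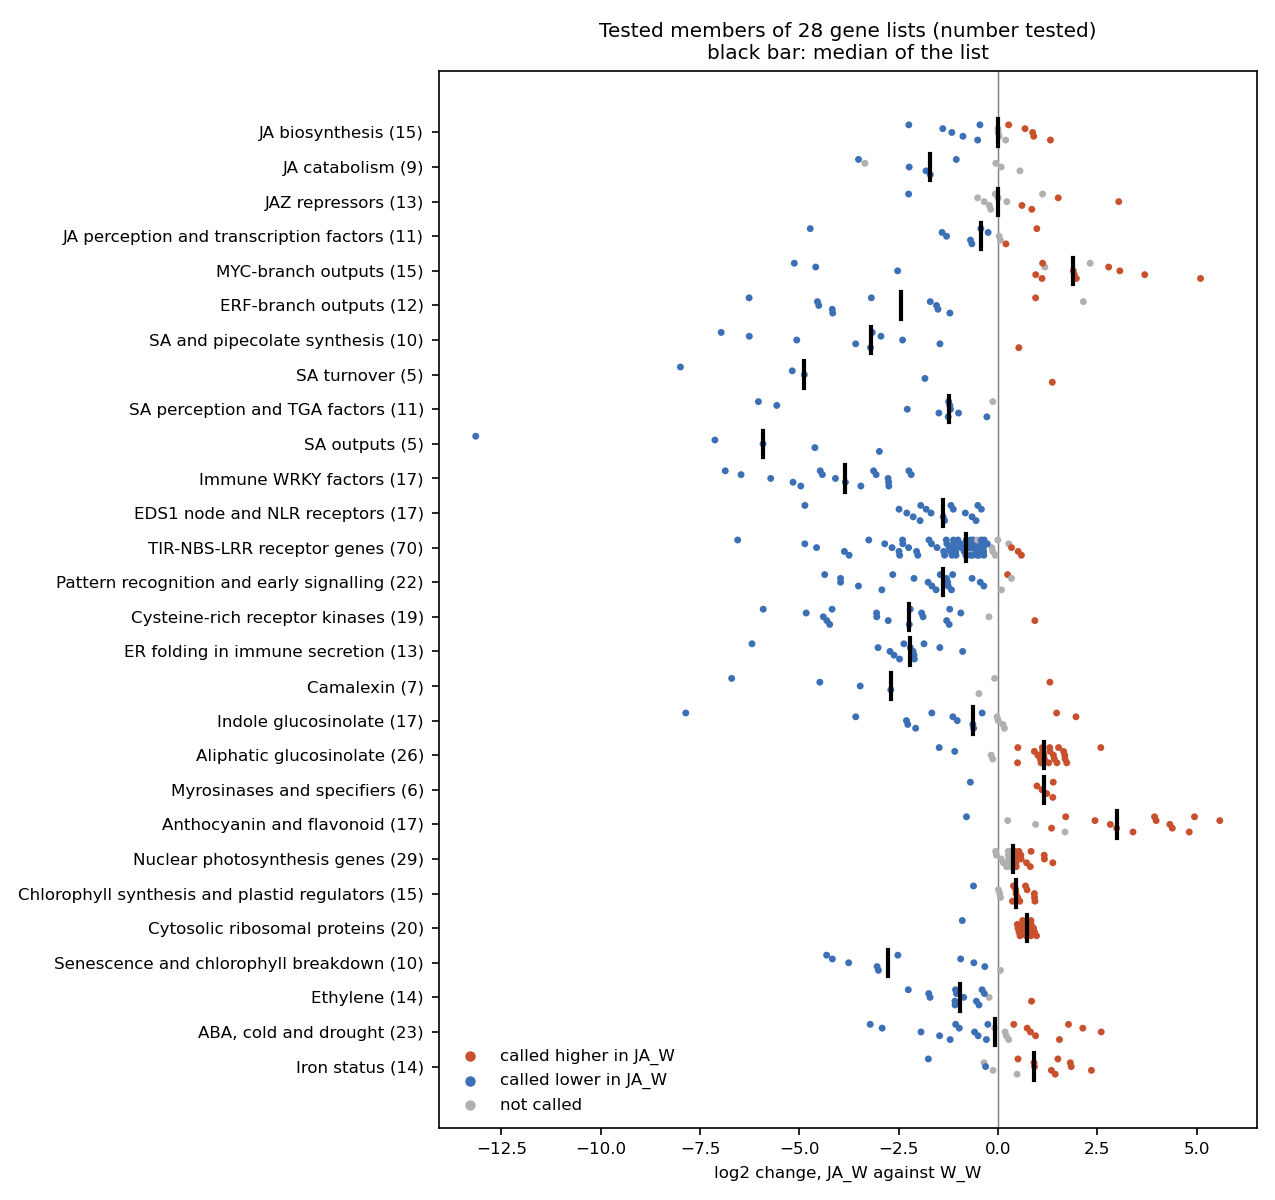
log2 change in JA_W against W_W (x axis) of every tested member of 28 gene lists (rows, with the number tested), coloured orange where called higher, blue where called lower and grey where not called; black bars are list medians. The SA, WRKY and receptor lists lie to the left, and the aliphatic glucosinolate, myrosinase, flavonoid and ribosomal protein lists to the right.

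Of 15 tested jasmonate biosynthesis genes 5 rose and 6 fell, counts near the shares over all genes (33.8% and 31.1%). AOS, allene oxide synthase, stood at 365, 276, 333 and 420.0 CPM in W_W and 847, 914, 825 and 887 CPM in JA_W (log2 change 1.32 ± 0.14, adjusted p = 6.4e-07), and LOX2, the leaf 13-lipoxygenase, at 2652, 1393, 2041 and 2303 CPM in W_W and 4247, 3729.7, 3517 and 4115 CPM in JA_W (log2 change 0.90 ± 0.17, adjusted p = 0.00022). AOC3, an allene oxide cyclase isoform (log2 change -2.25 ± 0.37, adjusted p = 7.6e-05), LOX4, a lipoxygenase isoform (log2 change -1.39 ± 0.24, adjusted p = 0.00014), and ACX1, a peroxisomal oxidase of the last steps (log2 change -1.17 ± 0.21, adjusted p = 0.00014), fell. The median of this list (-0.0020) changed sign under 7 of 18 alternatives, AOC3 was at -2.84 without W_W replicate 4 and JA_W replicate 1, and only 3 members were called higher when JA_W and W_W alone were fitted. Jasmonate catabolism moved one way: 5 of 9 genes fell and none rose in edgeR, in DESeq2 or at an unadjusted p below 0.05. JOX4 (log2 change -3.51 ± 0.53, adjusted p = 4.5e-05) and JOX3 (log2 change -2.24 ± 0.53, adjusted p = 0.0017), which hydroxylate JA to an inactive form, the conjugate hydrolase IAR3 (log2 change -1.81 ± 0.27, adjusted p = 2.7e-05) and the sulfotransferase ST2A (log2 change -1.71 ± 0.44, adjusted p = 0.003) were the largest. JOX4 stood at 10.6, 2.1, 4.15 and 2.43 CPM in W_W and 0.498, 0.418, 0.445 and 0.303 CPM in JA_W. Its W_W replicate 1 was far above the others, and without it the log2 change was -2.78.

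Among the 13 JAZ repressors 4 rose and 1 fell, where 33.8% of all genes rose and 31.1% fell. JAZ9 stood at 98.8, 77.2, 82.6 and 85.4 CPM in W_W and 309, 246, 205 and 220.3 CPM in JA_W (log2 change 1.51 ± 0.14, adjusted p = 1.9e-07), and JAZ4 rose at a low level (log2 change 0.85 ± 0.25, adjusted p = 0.0077). JAZ13 had 2 reads in W_W and 19 in JA_W, a ratio of 10.2-fold (95% counting interval 2.45 to 89.9). JAZ7 fell (log2 change -2.25 ± 0.61, adjusted p = 0.004), and without JA_W replicate 1 the number that fell was 3. Of 11 tested genes of perception and transcription 2 rose and 7 fell. The rise of the adaptor NINJA was lost without JA_W replicate 1, JA_W replicate 2 or W_W replicate 3 (log2 changes of 0.17, 0.18 and 0.18). It was also lost with library totals (0.073), with RLE scaling (0.16), with JA_W and W_W alone fitted (0.16) and in the 1.5-fold test. Leaving out W_W replicate 4 and JA_W replicate 1 together ended the NINJA call too (0.19). MYC4, a factor that acts with MYC2, stood at 26.4, 26.9, 25.6 and 27.4 CPM in W_W and 49.2, 58.2, 53 and 48.7 CPM in JA_W (log2 change 0.97 ± 0.07, adjusted p = 3.2e-08). The W_W libraries and the JA_W libraries were each close together for MYC4, and MYC2 was listed at 0 reads in every library. Whether that 0 comes from the annotation or counting used by the submitters was not tested, so the level of MYC2 in these leaves is unknown. MYC3 went the other way and fell (log2 change -0.44), as did COI1 (-0.25), JAM3 (-0.70) and TPL (-0.66). Each of these calls was lost only in the test against a 1.5-fold change. The NAC factors RD26 (log2 change -1.30 ± 0.25, adjusted p = 0.00028) and NAC019 (log2 change -1.41 ± 0.49, adjusted p = 0.02) fell, and NAC055 had a ratio of 32.8-fold (95% counting interval 8.73 to 276). Leaving out JA_W replicate 2, JA_W replicate 3 or W_W replicate 3 ended the call of NAC019 (log2 changes of -1.23, -1.26 and -1.25), and without JA_W replicate 2 NAC055 was at -7.04.

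Most outputs of the MYC branch were higher and most outputs of the ERF branch lower. In the MYC branch 10 of 15 tested genes rose and 3 fell (median 1.89). VSP2 and VSP1 led the rises. TPS04, a terpene synthase of volatile synthesis (log2 change -5.13 ± 0.93, adjusted p = 0.00023), and TAT3, a tyrosine aminotransferase (613, 289.7, 404 and 325 CPM in W_W and 30.9, 11.1, 14.2 and 11.4 CPM in JA_W; log2 change -4.59 ± 0.66, adjusted p = 3.0e-05), fell although both are known to be induced by JA. Without JA_W replicate 1 TPS04 was at -6.34. In the ERF branch 10 of 12 fell and 1 rose (median -2.45), and with a filter of 1 CPM 7 fell and the median was -1.55. ORA59, the factor that joins JA and ethylene, stood at 3.62, 4.01, 2.08 and 3.27 CPM in W_W and 1.24, 1.08, 1.01 and 1.09 CPM in JA_W (log2 change -1.55 ± 0.35, adjusted p = 0.001), and ERF1 at 2.09, 2.25, 1.38 and 0.753 CPM in W_W and 0.111, 0.0598, 0.0297 and 0.0607 CPM in JA_W (log2 change -4.55 ± 0.42, adjusted p = 1.8e-07). HEL, a chitin-binding PR4 protein, stood at 182, 124, 128 and 149 CPM in W_W and 6.06, 3.32, 7.48 and 8.68 CPM in JA_W (log2 change -4.51 ± 0.54, adjusted p = 5.1e-06). Defensin genes were low in both groups and lower in JA_W: PDF1.2a stood at 2.79, 1.89, 2.38 and 1.94 CPM in W_W and 0.111, 0.269, 0.208 and 0.394 CPM in JA_W (log2 change -3.19 ± 0.63, adjusted p = 0.00039), PDF1.2b fell (log2 change -4.17 ± 0.54, adjusted p = 5.4e-06), and PDF1.3 had a ratio of 115-fold (95% counting interval 20.3 to 4582). Reads of the PDF1 copies may be shared between them. Without JA_W replicate 3 PDF1.3 was at -7.85, and ERF1 was at -5.15 without W_W replicate 4 and JA_W replicate 1. The 1 member that rose was CHIB, a basic chitinase (log2 change 0.94 ± 0.29).

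Glucosinolates are sulfur-rich defence compounds that myrosinases activate on wounding. Of 26 tested genes of the methionine-derived aliphatic class 22 rose and 2 fell (median 1.16), against 33.8% of all genes that rose. FMOGS-OX2, which oxidises the side chain, stood at 0.53, 1.02, 1.02 and 0.666 CPM in W_W and 3.57, 5.5, 4.78 and 5.79 CPM in JA_W (log2 change 2.58 ± 0.27, adjusted p = 7.3e-07). FMOGS-OX3 (log2 change 1.73 ± 0.24, adjusted p = 1.7e-05), FMOGS-OX1 (log2 change 1.68 ± 0.21, adjusted p = 6.1e-06) and MYB29, an activator of the class (log2 change 1.69 ± 0.31, adjusted p = 0.00021), came next. MYB29 stood at 8.58, 23.9, 22.3 and 19.1 CPM in W_W and 56.7, 63.9, 66 and 50.8 CPM in JA_W, so W_W replicate 1 was lowest and no library overlapped. The 2 that fell were MAM3, a chain-elongation enzyme (log2 change -1.48 ± 0.36), and GTR2, a transporter (log2 change -1.09 ± 0.17). Summed over the tested genes the level was 1029, 1471, 1646 and 1619 CPM in W_W and 2808, 3061, 3379.9 and 2686 CPM in JA_W. Myrosinases and the proteins that steer their products rose in 5 of 6 cases and fell in 1. TGG2, a leaf myrosinase, stood at 526, 639, 636 and 531 CPM in W_W and 1548, 1334, 1549.9 and 1668 CPM in JA_W (log2 change 1.39 ± 0.11, adjusted p = 7.7e-08), and the specifier genes ESP (log2 change 1.38 ± 0.15, adjusted p = 7.3e-07), ESM1 and NSP1 (log2 change 1.105 ± 0.12, adjusted p = 6.1e-07) rose with it.

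The tryptophan-derived indole class went down: 11 of 17 tested genes fell and 2 rose (median -0.64). MYB122, an activator of the class, had 124 reads in W_W and 0 in JA_W, which is at least 38.7-fold lower. MYB51, its pathogen-responsive relative, stood at 69.2, 57.3, 58.7 and 47.1 CPM in W_W and 5.62, 2.84, 5.34 and 5.55 CPM in JA_W (log2 change -3.58 ± 0.31, adjusted p = 2.3e-07). IGMT1, a methyltransferase of indole glucosinolates (log2 change -2.31 ± 0.45, adjusted p = 0.00031), and PEN3, a plasma membrane exporter (2124, 1242, 1324 and 1377 CPM in W_W and 339, 244, 301 and 371 CPM in JA_W; log2 change -2.27 ± 0.23, adjusted p = 4.1e-07), fell too. MYB34, another activator, rose (log2 change 1.47 ± 0.17), and so did IGMT5 (log2 change 1.96 ± 0.22). For camalexin, the indole phytoalexin, 4 of 7 tested genes fell and 1 rose (median -2.70, and -3.52 without JA_W replicate 1). PAD3, the last enzyme, stood at 219, 227, 229 and 167 CPM in W_W and 24.7, 3.29, 4.48 and 4.85 CPM in JA_W (log2 change -4.49 ± 0.74, adjusted p = 9.1e-05), and CYP71A13 (log2 change -6.71 ± 0.86, adjusted p = 1.0e-05) and CYP71A12 (log2 change -3.47 ± 0.55, adjusted p = 6.8e-05) act before it. JA_W replicate 1 was the highest of its group for the 3, and without it the log2 changes were -5.64, -7.68 and -4.70. Of 16 sulfur genes 6 rose and 6 fell, near the shares over all genes (33.8% and 31.1%). LSU1 (log2 change -2.41 ± 0.29, adjusted p = 2.4e-06) and the root-type sulfate transporter SULTR1;2 (log2 change -2.19 ± 0.25, adjusted p = 1.6e-06), both markers of sulfur shortage, fell, and ATP sulfurylase APS3 rose (log2 change 0.80 ± 0.13, adjusted p = 3.4e-05).

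Most flavonoid and anthocyanin genes were higher in JA_W, many of them from a few reads in W_W. Of 17 tested genes 13 rose and 1 fell, where 33.8% of all genes rose. The median log2 change was 2.98, or 2.82 with TT8 at its bound. Only 9 members were called higher when JA_W and W_W alone were fitted, and 10 with a filter of 1 CPM. TT8, a bHLH activator, had 0 reads in W_W and 15 in JA_W, at least 5.34-fold higher. F3H, flavanone 3-hydroxylase, had 2 and 66 reads, a ratio of 35.3-fold (95% counting interval 9.38 to 297). 5MAT, an anthocyanin malonyltransferase, had 1 and 68 reads (0.36, 0.0897, 0.564 and 1 CPM in JA_W), a ratio of 72.7-fold (95% counting interval 12.6 to 2912), and its fitted log2 change was 7.09 without W_W replicate 1, the library with that read. The repressor MYBL2 was the 1 that fell, from 257, 212, 212 and 259 CPM in W_W to 143, 120.2, 142 and 136 CPM in JA_W (log2 change -0.80 ± 0.10). Summed over the tested genes the level was 271, 235, 237 and 285 CPM in W_W and 319, 399, 338 and 389 CPM in JA_W, most of which was MYBL2 in W_W and CHS and MYBL2 in JA_W.

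Photosynthesis, chlorophyll and protein synthesis genes shifted upwards by small amounts. Of 29 nuclear photosynthesis genes 14 rose and none fell in edgeR, in DESeq2 or at an unadjusted p below 0.05 (median 0.37). Over all genes 33.8% rose and 31.1% fell. RBCS1B (log2 change 1.38 ± 0.17, adjusted p = 2.2e-06), SBPASE of the Calvin cycle (592, 589, 645 and 923 CPM in W_W and 1265, 1614, 1628 and 1659 CPM in JA_W; log2 change 1.17 ± 0.17, adjusted p = 1.7e-05), GAPB, a plastid glyceraldehyde-3-phosphate dehydrogenase (log2 change 1.16 ± 0.16, adjusted p = 1.0e-05), and RBCS2B (log2 change 0.83 ± 0.21, adjusted p = 0.0024) rose most. Of the 29, 7 had no overlap of replicates, all with higher values in JA_W. That is below the share over all genes, 30.7% in that direction. W_W replicate 4 was the highest of its group for SBPASE, GAPB and RBCS2B; without it 25 members were called higher, and without W_W replicate 2 or 3 there were 9. Reads of the RBCS copies may be shared. Of 15 genes of chlorophyll synthesis and plastid transcription 11 rose and 1 fell (median 0.45). Replicates did not overlap for 5 of the 15, all with higher values in JA_W, near the 30.7% of all genes in that direction. The fall was that of PORA (log2 change -0.62). Its call was lost without W_W replicate 4 (-0.41), without JA_W replicate 1 (-0.46) and in several other alternatives. The sigma factor SIG6 (log2 change 0.93 ± 0.13, adjusted p = 1.3e-05), HEMA1, the first committed enzyme of tetrapyrrole synthesis (log2 change 0.92 ± 0.13, adjusted p = 1.2e-05), PORC (log2 change 0.91 ± 0.16, adjusted p = 0.00012) and SIG2 (log2 change 0.73 ± 0.16, adjusted p = 0.00071) rose most.

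Ribosomal protein genes rose by similar amounts. Of 20 cytosolic ribosomal protein genes 19 rose and 1 fell, all without overlap, with a median of 0.72 and rises from 0.48 to 0.97. RPS5B stood at 70.2, 86.3, 73.5 and 83.9 CPM in W_W and 159, 165, 145 and 144 CPM in JA_W (log2 change 0.97 ± 0.10, adjusted p = 7.7e-07), RPL5A rose (log2 change 0.92 ± 0.11, adjusted p = 2.8e-06), and so did RPL24A (log2 change 0.89 ± 0.11, adjusted p = 3.1e-06). RPL10C, a stress-responsive copy, was the 1 that fell (305, 406, 319 and 264 CPM in W_W and 243, 157, 137 and 155 CPM in JA_W; log2 change -0.90 ± 0.19, adjusted p = 0.00053). Summed over the list the level was 3410.3, 3935, 3589 and 3695 CPM in W_W and 5622, 6102, 5287 and 5437 CPM in JA_W. Leaf senescence genes went the other way, with 9 of 10 lower and none higher in edgeR, in DESeq2 or at an unadjusted p below 0.05 (median -2.77). NAP, a NAC activator of senescence, stood at 29.7, 20.2, 30 and 22.7 CPM in W_W and 3.79, 2.33, 3.06 and 3.22 CPM in JA_W (log2 change -3.05 ± 0.16, adjusted p = 2.2e-09). ORE1 (log2 change -4.32 ± 0.51, adjusted p = 2.0e-06), SAG21 (log2 change -4.17 ± 0.46, adjusted p = 2.4e-06) and SEN1 (log2 change -3.76 ± 0.37, adjusted p = 4.5e-07) fell further, and without JA_W replicate 1 ORE1 and SAG21 were at -5.34 and -4.85. SAG12, the strict marker of late senescence, was not among the genes that could be tested.

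Of 14 genes of iron status 9 rose and 2 fell: the iron-signal peptides IMA1 (0.0557, 0.153, 0.138 and 0.0579 CPM in W_W and 0.36, 0.478, 0.564 and 0.758 CPM in JA_W; log2 change 2.35 ± 0.43, adjusted p = 0.00016) and IMA2 (log2 change 1.82 ± 0.50, adjusted p = 0.0043) and the ferritin FER3 (log2 change 1.84 ± 0.18, adjusted p = 4.4e-07) rose, and the reductase FRO3 fell (log2 change -1.76 ± 0.21, adjusted p = 2.9e-06). With a filter of 1 CPM 5 were called higher. Among 8 genes of nitrate assimilation 3 rose and 1 fell, where 33.8% of all genes rose, with nitrite reductase NIR1 (101, 103, 115 and 131 CPM in W_W and 269.7, 479.8, 394 and 438 CPM in JA_W; log2 change 1.81 ± 0.15, adjusted p = 9.5e-08) and the plastid glutamine synthetase GLN2 (log2 change 0.85 ± 0.14, adjusted p = 7.5e-05) higher and the cytosolic GLN1;1 lower (log2 change -2.49 ± 0.29, adjusted p = 2.9e-06).

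Ethylene genes were mostly lower, and other hormone and clock genes were mixed. Over all genes 33.8% rose and 31.1% fell. Of 14 ethylene genes 12 fell and 1 rose (median -0.96). ACO4, which makes ethylene, stood at 369, 303, 267 and 317 CPM in W_W and 131, 75.9, 80.7 and 86.8 CPM in JA_W (log2 change -1.75 ± 0.21, adjusted p = 2.5e-06), and the ACC synthases ACS2 (log2 change -2.26 ± 0.59, adjusted p = 0.0036) and ACS6 (log2 change -1.71 ± 0.16, adjusted p = 2.3e-07) fell with the receptor ETR2 (log2 change -1.09 ± 0.37, adjusted p = 0.016). ACS2 was high in JA_W replicate 1 (3.65 CPM, others 0.389, 0.445 and 1.3 CPM), and ACS2 without that replicate was at -3.30. ETR2 was at -1.75 without W_W replicate 4 as well. Among 23 genes of abscisic acid, cold and drought 8 rose and 11 fell, and the cold genes COR15A (83.9, 129.8, 201 and 209.5 CPM in W_W and 884, 1169, 839 and 877 CPM in JA_W; log2 change 2.59 ± 0.29, adjusted p = 1.8e-06) and KIN1 (log2 change 2.13 ± 0.42, adjusted p = 0.00043; 2.77 without W_W replicate 3) rose while RD29B (log2 change -3.22 ± 0.45, adjusted p = 1.1e-05) and the receptor PYL6 (log2 change -2.92 ± 0.37, adjusted p = 4.5e-06; -3.74 without JA_W replicate 1) fell. Gibberellin genes were near the shares of all genes, with 5 of 13 higher and 4 lower; besides GA2OX1, the synthesis gene GA3OX1 (log2 change 1.36 ± 0.20, adjusted p = 1.8e-05) and the DELLA gene RGL3 (log2 change 1.36 ± 0.22, adjusted p = 5.4e-05) rose and the receptor GID1B fell (log2 change -1.87 ± 0.27, adjusted p = 2.6e-05). In the clock 5 of 14 genes rose and 4 fell, also near those shares, with LUX (log2 change 1.43 ± 0.19, adjusted p = 6.1e-06) and ELF4 (log2 change 1.25 ± 0.35, adjusted p = 0.0052), both of the evening complex, higher and TOC1 (log2 change -1.31 ± 0.14, adjusted p = 5.6e-07) and RVE1 (log2 change -1.28 ± 0.21, adjusted p = 4.6e-05) lower.

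Genes of DNA methylation, a mark that can last through cell divisions, were mixed. ROS1, a demethylase, stood at 38.7, 32.3, 41.6 and 42.5 CPM in W_W and 38.1, 39.5, 47.7 and 48.8 CPM in JA_W, with overlap between the groups (log2 change 0.17 ± 0.10, adjusted p = 0.17). AGO1, the main carrier of small RNAs, stood at 116, 94.8, 105 and 116 CPM in W_W and 113, 115, 115 and 120.2 CPM in JA_W (log2 change 0.10 ± 0.08, adjusted p = 0.27). Neither passed the threshold; the interval of 1.96 SE reaches 0.37 for ROS1 and 0.26 for AGO1. Upper-quartile scaling gave a call for both (0.25 and 0.19), as did leaving out W_W replicate 4 and JA_W replicate 1 for ROS1 (0.27), and library totals turned AGO1 to -0.019. The demethylases DML2 (37.6, 23.63, 29.8 and 24.2 CPM in W_W and 12.9, 10.3, 12.7 and 13.3 CPM in JA_W; log2 change -1.23 ± 0.16, adjusted p = 7.1e-06) and DME (log2 change -0.81 ± 0.11, adjusted p = 5.5e-06) fell, and DML3 rose (log2 change 0.44 ± 0.11, adjusted p = 0.0022). In the wider set of 20 genes for methylation and small RNAs 8 rose and 3 fell, where 33.8% of all genes rose and 31.1% fell. DDM1, a chromatin remodeller (2.62, 3.09, 3.18 and 2.96 CPM in W_W and 6.67, 7.17, 7.12 and 7.13 CPM in JA_W; log2 change 1.24 ± 0.11, adjusted p = 1.8e-07), CMT2, a non-CG methyltransferase (log2 change 1.09 ± 0.13, adjusted p = 1.5e-06), and AGO4 of RNA-directed methylation (log2 change 0.97 ± 0.12, adjusted p = 2.9e-06) rose, and the SA-inducible RNA polymerase RDR1 fell (log2 change -1.72 ± 0.20, adjusted p = 2.1e-06).

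Markers of stress at harvest differed within JA_W. Of 8 tested heat shock genes 4 fell and 1 rose, and of 6 touch and early stress genes 4 fell and 1 rose. Over all genes 31.1% fell and 33.8% rose. Replicates lay apart with lower values in JA_W for 1 of the 8 heat shock genes and 3 of the 6 touch genes. Over all genes that share was 28.7%. The heat shock list summed to 309, 468, 319 and 235 CPM in W_W and 377, 72.7, 85.5 and 108 CPM in JA_W, so JA_W replicate 1 lay within the range of W_W and the other 3 below it. HSP90.1 stood at 163, 249, 174 and 128 CPM in W_W and 141, 23.3, 28.4 and 42.5 CPM in JA_W (log2 change -1.60 ± 0.51, adjusted p = 0.013), and ZAT12, a stress zinc finger factor, at 29.1, 36.3, 32.9 and 19.9 CPM in W_W and 22.2, 4.45, 5.34 and 5.7 CPM in JA_W (log2 change -1.64 ± 0.46, adjusted p = 0.0056). Without JA_W replicate 1 they were at -2.51 and -2.51, and 7 of the 8 heat shock genes were lower. TCH3, a calmodulin-like touch gene, fell in every JA_W library (226, 175, 174 and 136 CPM in W_W and 24.3, 11.4, 14.7 and 14.9 CPM in JA_W; log2 change -3.45 ± 0.29, adjusted p = 1.4e-07). The part of these markers in the other results was not tested, beyond the values without JA_W replicate 1 given beside them. Of the cell type markers, 2 of 5 guard cell markers rose, FAMA (log2 change 0.62 ± 0.14, adjusted p = 0.0013) and KAT1 (log2 change 0.50 ± 0.17, adjusted p = 0.017). KAT1 was not called without JA_W replicate 2 (0.43), W_W replicate 1 (0.44) or W_W replicate 4 (0.39), or with library totals (0.36). In the 1.5-fold test FAMA and KAT1 both lost their calls. None of 3 phloem companion cell markers passed the test in edgeR, DESeq2 or at an unadjusted p below 0.05, and 3 of 4 trichome markers rose, GL2 (log2 change 1.09 ± 0.16, adjusted p = 1.3e-05), TRY (log2 change 0.89 ± 0.14, adjusted p = 4.9e-05) and ETC1 (log2 change 1.29 ± 0.30, adjusted p = 0.0013). The guard cell count was near the share of all genes that rose (33.8%), and 1 of the 5 guard cell markers had no overlap of replicates. Of 7 tested dividing cell markers 3 rose, all without overlap (median 0.61). None of the 7 fell in edgeR, in DESeq2 or at an unadjusted p below 0.05. Under the alternatives other than the 1.5-fold test 1 to 4 of them were called higher. The part of cell type in the other results was not tested.

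The same difference of history could be read in the challenged plants, which share no library with JA_W and W_W. Between JA_JA and W_JA 7710 genes (40.1%) were called, 3630 higher (18.9%) and 4080 lower (21.2%), and 542 rose and 1435 fell more than 2-fold (2.82% and 7.46%). Of the 1566 genes that rose more than 2-fold without challenge, 1054 (67.3%) were higher under challenge and 4 lower. Of the 2573 that fell more than 2-fold, 2014 (78.3%) were lower and 3 higher. The median log2 change of those genes was 1.28 without and 0.62 under challenge for the rises and -1.84 and -1.08 for the falls. The first value of each pair comes from the libraries that chose these genes, so the pairs are a description. Across all genes the log2 changes of both comparisons had a Pearson r of 0.859 and a Spearman rho of 0.791, as a description over genes that are not independent. With library totals the calls under challenge split into 2437 higher and 5015 lower, and with upper-quartile scaling into 4909 and 3291.

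The difference between both history effects was tested for each gene, as the interaction of history and challenge. It was called for 3539 genes (18.4%), 1539 more positive under challenge (8.01%) and 2000 more negative (10.4%). Which sign had more calls turned with the setting: DESeq2 gave 2214 more positive and 2013 more negative, RLE scaling 1792 and 1657, and leaving out JA_JA replicate 2 or 3 gave 1661 and 1346 or 1575 and 1389. The numbers were 1012 and 1332 without JA_W replicate 2, and 2450 and 2700 without W_W replicate 4 and JA_W replicate 1. Of the 20 ribosomal protein genes 16 had a more negative history effect under challenge, and none was called under challenge in edgeR (3 at an unadjusted p below 0.05, and 2 in DESeq2, all higher). For RPS5B the log2 change was 0.97 without and 0.083 under challenge (interaction adjusted p = 0.001). In the aliphatic glucosinolate list 13 of 26 members were more negative, and 9 rose and 4 fell under challenge. MYC4 rose without challenge (0.97) and fell under it (-0.19, adjusted p = 0.037; interaction adjusted p = 6.8e-06). VSP2 was higher in both, at 5.09 and 1.44 (interaction adjusted p = 1.0e-05). For SA perception 5 of 11 and for the immune WRKY list 9 of 17 members were more positive under challenge, which for these lower genes is a smaller gap. NPR3 went from -2.29 to -0.61 (interaction adjusted p = 1.8e-05), and NIMIN1 from -6.03 to -1.51 (interaction adjusted p = 6.3e-05). PR1, PR2 and ALD1 were low after seedling JA in both conditions, with log2 changes under challenge of -10.92, -5.21 and -5.54, and interaction adjusted p-values of 0.45, 0.45 and 0.35.

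**Figure D5:**
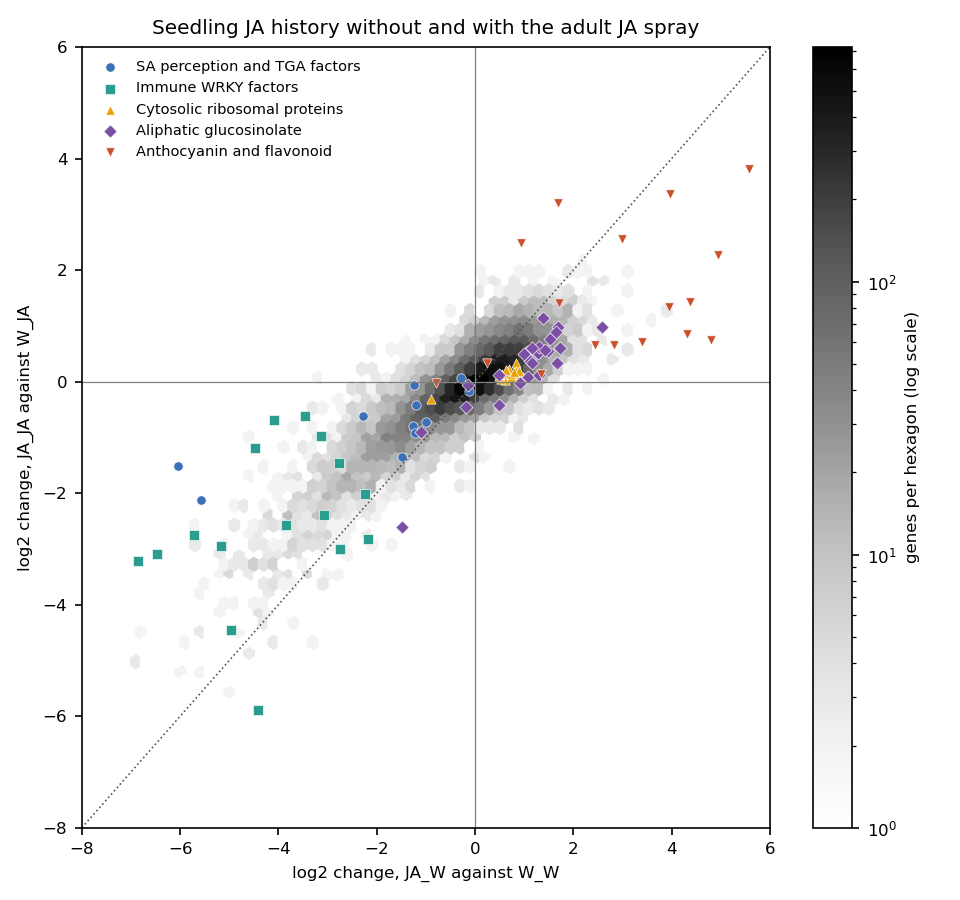
log2 change with seedling JA history without the adult JA spray (x axis, JA_W against W_W) and with it (y axis, JA_JA against W_JA); grey hexagons count the genes tested on a log scale, symbols are members of 5 lists, the dotted line marks equal changes, and 11 genes lie beyond the axes. Ribosomal protein genes sit near 0.14 on the y axis at a median of 0.72 on the x axis.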

How the data were processed

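Rosette leaves were profiled by RNA sequencing in 16 libraries, 8 of which are compared here. The deposited table of each library gives raw counts per gene, and beside them CPM, which equal the deposited counts divided by their total and were not tested. Per the submitters' processing notes the tools were Trimmomatic 0.38, STAR 2.6.1b and HTSeq 0.9.1 with the TAIR10 build; how reads with several matches and the strand were treated is not given in the sources used here, so copies and overlapping genes are uncertain. The groups compared are those of the labels.

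All 16 libraries were fitted in edgeR 4.0.16 (quasi-likelihood test, TMM, robust) with 1 mean per group and Benjamini-Hochberg adjustment, after edgeR's filter (minimum count 10, total 15), which left 19224 of 34262 genes; a fitted log2 change uses a prior count of 2, and its SE is the change over the square root of F. Genes with 0 reads in a group are bounded with 3 reads over the group, and those with 1 to 3 reads have a 95% counting interval that covers counting error only. Counts for JA_W against W_W were also simulated, with 50 genes changed at each size. The share of changed genes called was 44.9% at 1.5-fold, 72% at 2-fold, 92% at 4-fold and 96% at 8-fold. The share at 1.5-fold is not a whole number of 50 genes, so its base may be smaller. The Benjamini-Hochberg cut-off depends on how many genes differ, and the real comparison had 12471 calls. These shares therefore do not measure detection in the real comparison. Named genes are the 10 largest called rises and falls whose mean reached 1 CPM and whose replicates stayed apart between groups, the 6 largest rises and falls in CPM, up to 4 per list by size of change, and a fixed set of reporters; single exceptions within a list were named after their values were seen. Members and lists were chosen with earlier results of these data known. Replicate numbers did not pair the samples: same-numbered JA_W and W_W libraries deviated together with correlations of 0.06, -0.14, -0.0013 and 0.12. Promoters are from RefSeq TAIR10.1. The alternatives included DESeq2 1.42.0, other scalings and filters, the replicate block, a 1.5-fold threshold test and leaving out libraries; leaving out W_W replicate 4 and JA_W replicate 1 together was chosen after seeing the data.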

Additional observations from a re-analysis of the deposited data

Results flagged for a closer look

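The history effects without and under challenge differed by a test of the difference itself (interaction of history and challenge in edgeR, adjusted over all genes) for 68 of the 179 genes named and read for it, against 18.4% of all genes tested. Many of these genes were named for a large change without challenge, a value that enters the difference, so that the count and the direction of the values are not independent of that choice. The values are the log2 history difference under challenge minus that without challenge. Among the 33 genes with a more negative value it was -5.14 for AT1G73325, -4.47 for CSLA01, -4.07 for F3H, -3.65 for VSP2, -3.49 for JAZ13, -2.95 for CHS, -2.66 for WSD1, -2.65 for NUDT24 and -2.62 for AT3G24463. It was also -2.61 for SCPL9, -2.28 for VSP1, -1.73 for KIN1, -1.61 for FMOGS-OX2, -1.60 for COR15A, -1.39 for NIR1, -1.34 for FMOGS-OX1, -1.25 for KAT1 and -1.21 for RBCS1B. Smaller values were -1.19 for FER3, -1.17 for MYC4, -1.13 for FMOGS-OX3, -1.12 for JAZ9, -0.97 for SPL9, -0.88 for RPS5B, -0.87 for NSP1, -0.85 for ESP and -0.80 for TRY. Further down were -0.79 for AOS, -0.77 for RPL5A, -0.70 for RPL24A, -0.66 for DDM1, -0.62 for DML3 and -0.52 for AGO4. Among the 35 genes with a more positive value it was 6.43 for MYB122, 4.53 for NIMIN1, 4.07 for GRXS13, 4.05 for GRXC9, 3.64 for WRKY62, 3.53 for ERF1, 3.45 for NIMIN2, 3.38 for WRKY38 and 3.21 for JOX4. It was further 2.99 for SEN1, 2.97 for WRKY51, 2.77 for EDS1B, 2.77 for SARD1, 2.15 for JOX3, 2.08 for JAZ7, 2.05 for NAP, 2.02 for DMR6 and 1.97 for PYL6. Next came 1.95 for AT5G45000, 1.94 for MPK11, 1.83 for MYB51, 1.81 for ST2A, 1.79 for UGT74F2, 1.68 for NPR3, 1.53 for BIP2, 1.51 for NRG1.2 and 1.48 for ACS6. Lower values were 1.47 for SULTR1;2, 1.44 for TCH3, 1.399 for LSU1, 1.27 for IAR3, 1.101 for PEN3, 0.92 for RVE1, 0.76 for MGD2 and 0.71 for TOC1.

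A further 39 values lay far from the other 3 libraries of their group by Dixon's criterion, where chance gives about 1 in 20. The named genes gave 358 groups of 4, of which those with at most 3 reads or with no spread were not read. In JA_W replicate 1 such values were 523 CPM for GSTF6 (median of the others 134), 32.4 CPM for IAR3 (median of the others 19.5), 0.498 CPM for TPS04 (median of the others 0.0598), 15.9 CPM for AT1G73325 (median of the others 4.49), 14.6 CPM for FRK1 (median of the others 3.5), 30.9 CPM for TAT3 (median of the others 11.4), 5.75 CPM for CYP71A12 (median of the others 0.742), 1.19 CPM for CYP71A13 (median of the others 0.267) and 0.443 CPM for PYL6 (median of the others 0.119). For the same library they were 0.47 CPM for AT2G45220 (median of the others 0), 3.87 CPM for AOC3 (median of the others 1.55), 24.7 CPM for PAD3 (median of the others 4.48), 1265 CPM for SBPASE (median of the others 1628), 8.41 CPM for GID1B (median of the others 4.51), 152 CPM for ACX1 (median of the others 95.9), 8.16 CPM for RD26 (median of the others 5.34), 1556 CPM for RBCS2B (median of the others 1921) and 141 CPM for HSP90.1 (median of the others 28.4). For the same library they were 22.2 CPM for ZAT12 (median of the others 5.34) and 6.67 CPM for DDM1 (median of the others 7.13). In W_W replicate 4 such values were 1799 CPM for GAPB (median of the others 1183), 34.1 CPM for AGO4 (median of the others 23), 167 CPM for PAD3 (median of the others 227), 923 CPM for SBPASE (median of the others 592), 1.3 CPM for CER4 (median of the others 0.609), 3856 CPM for FBA2 (median of the others 2630.1), 1006 CPM for GLN2 (median of the others 739), 1449.9 CPM for RBCS2B (median of the others 897) and 18.17 CPM for TOC1 (median of the others 23.5). In JA_W replicate 2 such values were 2.84 CPM for MYB51 (median of the others 5.55), 28.1 CPM for SOBIR1 (median of the others 36.5), 1169 CPM for COR15A (median of the others 877) and 7.2 CPM for TOC1 (median of the others 9.52). In W_W replicate 1 such values were 2124 CPM for PEN3 (median of the others 1324), 8.31 CPM for FMOGS-OX3 (median of the others 22), 411 CPM for RLP23 (median of the others 199) and 41.7 CPM for CRK23 (median of the others 24.6). In JA_W replicate 3 such values were 4.07 CPM for GL2 (median of the others 5.17). In W_W replicate 3 such values were 4.18 CPM for TRY (median of the others 3.42).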

How the results depend on the processing

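The number of genes called in JA_W against W_W (6497 higher and 5974 lower) stayed within 1.5 times under the alternatives other than a test against a 1.5-fold change (2164 and 2886), which asks for a larger effect by construction. Leaving out each library in turn gave 6034 to 6474 higher and 5565 to 6066 lower. Under challenge the 1.5-fold test gave 292 and 1222, and leave-one-out gave 2592 to 3877 and 3141 to 4173. For the interaction the 1.5-fold test gave 150 more positive and 117 more negative, leave-one-out gave 1012 to 2015 and 1332 to 2480, and leaving out W_W replicate 4 and JA_W replicate 1 gave 2450 and 2700; the cause was not tested. The larger direction turned with the scaling without challenge and with several settings for the interaction, as given beside those counts. Library totals gave 5117 higher and 6944 lower without challenge. The fit with the replicate number as a block gave 6332 and 5876 without challenge, 3309 and 3859 under it and 1387 and 1766 for the interaction; the numbers do not pair these samples. Of the 18 alternatives, library totals turned AGO1 (log2 change -0.0192); no other named gene changed sign. Small list counts moved in several alternatives, and the medians of JA biosynthesis, JAZ, sulfate, abscisic acid, flowering, gibberellin, nitrate, phloem and plastid-encoded genes changed sign in at least 1. Depth limits genes below a few reads per library, for which counting intervals are given.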

Other observations

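Of 15 tested wax and lipid transfer genes 8 rose and 2 fell, where 33.8% of all genes rose and 31.1% fell. Under the alternatives other than the 1.5-fold test 7 to 9 were called higher and 1 to 4 lower. CER1, an enzyme of alkane synthesis, stood at 25.1, 34.7, 71.3 and 84.2 CPM in W_W and 122, 199.9, 183 and 246 CPM in JA_W (log2 change 1.80 ± 0.47, adjusted p = 0.0035), and WSD1, a wax ester synthase, rose (log2 change 1.62 ± 0.42, adjusted p = 0.0033). The alcohol-forming reductase CER4 (log2 change -2.15 ± 0.50, adjusted p = 0.0011; -1.42 without W_W replicate 4 and JA_W replicate 1) and KCS12 (log2 change -3.03 ± 0.38, adjusted p = 5.7e-06) fell. Phosphate starvation genes were mostly lower, with 7 of 11 down and 2 up, against 31.1% and 33.8% of all genes. The transporter PHT1;4 stood at 4.88, 5.04, 4.32 and 6.06 CPM in W_W and 2.88, 1.7, 2.85 and 2.18 CPM in JA_W (log2 change -1.07 ± 0.25, adjusted p = 0.0012), and the galactolipid synthase MGD2 fell (log2 change -0.72 ± 0.13, adjusted p = 0.00012). SPL9, an age-dependent flowering factor, rose (log2 change 1.32 ± 0.16, adjusted p = 3.2e-06), and SOC1, a floral integrator, fell (log2 change -0.56 ± 0.12, adjusted p = 0.00053); the other 7 tested flowering regulators were not called.

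Of 63 tested plastid-encoded genes 9 were called higher and 2 lower, and the first number was 1 with library totals and 15 with upper-quartile scaling. By annotation class, 34.3% of 18708 protein-coding genes were higher and 31.5% lower, against 14.4% and 16.5% of 285 long noncoding RNAs. Of 42 snoRNA genes 9 were higher (21.4%), below the 33.8% of all genes. The shares were close between chromosomes, at 32.7% to 34.7% higher and 30.2% to 32.6% lower.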
